A study of Homo sapiens with 3 samples.

Results

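The genes described here are 10 members of the Hippo pathway and of its transcriptional output: YAP1, WWTR1, TEAD1, TEAD4, LATS1, LATS2, CTGF, CYR61, ANKRD1 and AMOTL2. They were chosen by symbol from the 18856 genes listed in at least 1 of 3 libraries, and every one of them was found. Earlier results of these data were known when they were chosen. All 10 were listed in A549 LIEA and in HBE Smart-seq2, and 9 of them in HBE LIEA, where ANKRD1 was not listed. The files use older symbols, so that CTGF is the gene now called CCN2 and CYR61 the gene now called CCN1.

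The study sequenced 10 pg of polyA+ mRNA per library from cultured human lung cells, with neither a treatment nor a genetic change. LIEA is the study's own low-input method, in which the mRNA is fragmented, given adapters, amplified as a finished library and read on an Ion Torrent sequencer, and it was applied to HBE, a bronchial epithelial cell line, and to A549, a lung adenocarcinoma cell line. Smart-seq2 primes full-length cDNA on the polyA tail with oligo-dT and amplifies it before a library is made, and it was applied to HBE and read on an Illumina sequencer. Each of these 3 groups had 1 library, so no difference below has a replicate check and none carries a p-value.

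The Hippo pathway restrains growth of epithelial tissue by holding a pair of related transcriptional coactivators out of the nucleus. The kinases LATS1 and LATS2 phosphorylate YAP (encoded by YAP1) and TAZ (encoded by WWTR1), which are then kept in the cytoplasm or degraded. Unphosphorylated YAP and TAZ enter the nucleus, bind the DNA-binding TEAD factors and raise the transcription of genes such as CTGF, CYR61, ANKRD1 and AMOTL2, and AMOTL2 and LATS2 in turn act against YAP. Activity of the pathway is set mainly on the protein, which mRNA levels do not measure.

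TEAD proteins are known to bind DNA with the core GGAATG. RefSeq promoters on GRCh38.p14, which run from 250 bases before to 50 bases after a transcription start, were searched for these letters on both strands, the other strand reading CATTCC. Of the 35116 promoters searched, 4928 held at least 1 match, 1.37% held at least 2 and 0.128% at least 3. Among the members, 7 matched an entry, and 5 of these had a match at 1 of their start sites, against 16.7% of all 27305 genes with an entry. The CTGF promoter held 3 matches, which began 169, 104 and 95 bases before the start. ANKRD1 held 2, and YAP1, LATS2 and the second listed start of AMOTL2 held 1 each, while the listed starts of WWTR1 and LATS1 and the first start of AMOTL2 held none. The promoters of the 4 targets of the pathway that held a match are shown in the direction of the gene, to be read beside their unlike levels below. Capitals mark the match. The regions are chr6:131951323-131951622 for CTGF, chr10:90921038-90921337 for ANKRD1, chr3:134374398-134374697 for AMOTL2 and chr13:21061537-21061836 for LATS2, all on the minus strand.
CTGF: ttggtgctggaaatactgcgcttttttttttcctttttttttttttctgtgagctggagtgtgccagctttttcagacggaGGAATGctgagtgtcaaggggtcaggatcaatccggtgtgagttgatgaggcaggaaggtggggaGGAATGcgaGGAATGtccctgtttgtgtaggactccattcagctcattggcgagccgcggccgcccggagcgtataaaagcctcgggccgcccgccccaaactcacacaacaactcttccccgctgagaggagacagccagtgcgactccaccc
ANKRD1: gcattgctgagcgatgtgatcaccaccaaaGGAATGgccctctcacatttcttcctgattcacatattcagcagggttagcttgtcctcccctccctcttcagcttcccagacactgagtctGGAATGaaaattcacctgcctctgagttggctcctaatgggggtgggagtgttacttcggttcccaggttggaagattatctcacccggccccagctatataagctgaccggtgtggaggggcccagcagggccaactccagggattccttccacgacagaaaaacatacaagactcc
AMOTL2: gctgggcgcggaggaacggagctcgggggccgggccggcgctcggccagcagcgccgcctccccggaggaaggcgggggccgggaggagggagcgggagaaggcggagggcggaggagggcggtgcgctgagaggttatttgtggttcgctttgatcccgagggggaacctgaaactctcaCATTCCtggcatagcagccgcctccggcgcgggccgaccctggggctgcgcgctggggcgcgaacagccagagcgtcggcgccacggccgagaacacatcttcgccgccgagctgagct
LATS2: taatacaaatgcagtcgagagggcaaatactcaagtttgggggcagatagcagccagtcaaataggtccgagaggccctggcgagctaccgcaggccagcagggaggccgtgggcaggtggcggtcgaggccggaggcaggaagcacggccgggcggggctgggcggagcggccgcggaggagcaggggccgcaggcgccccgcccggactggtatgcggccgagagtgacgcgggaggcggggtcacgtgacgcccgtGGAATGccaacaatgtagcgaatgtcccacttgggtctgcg
A match is a description of the letters and was not tested as a binding site.

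The libraries held 4154060 mapped reads for A549 LIEA, 4605855 for HBE LIEA and 9845150 for HBE Smart-seq2, and 16711, 16073 and 16498 genes were listed. At these depths a gene with no read could still stand at up to 0.722, 0.651 and 0.305 reads per 1000000 mapped reads, which is the level of 3 reads. Markers of basal airway cells separated the cell lines: KRT5 had 18 reads in A549 LIEA against 5854 in HBE LIEA and 9219 in HBE Smart-seq2, and KRT14 was not listed in A549. Of 5 epithelial markers, KRT8 and KRT18 were past 2-fold higher in A549 than in both HBE libraries, EPCAM with 26, 226 and 2181 reads and CDH1 with 388, 1267 and 2653 reads were past 2-fold lower, and KRT19 was within 2-fold. A549 is derived from the alveolar epithelium. Of 4 markers of alveolar type II cells, SFTPA1 and SFTPC were listed in no library and SFTPB had 20 to 49 reads. NAPSA had 7 reads in A549 LIEA and was listed in neither HBE library. Of 6 fibroblast markers, COL1A2 and DCN were listed in no library and the summed level of the list was 23.4, 38.2 and 9.24 on the same scale. Nearly all of this sum came from COL1A1, with 93, 175 and 85 reads. Summed levels were 2.89, 30.6 and 27.8 for 4 endothelial markers, among which CDH5 had 0, 103 and 180 reads, and 43.8, 13.5 and 5.79 for 4 leukocyte markers, nearly all from CD14. The part of any other cell type in the results below was not tested. In RNA pooled from many cells, fewer cells with a transcript and less transcript per cell cannot be told apart.

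Levels are given as recovered reads and as log2 rpkM, the base 2 logarithm of reads per 1000000 mapped reads and per kilobase of transcript, in the order A549 LIEA, HBE LIEA, HBE Smart-seq2. Differences are in log2 rpkM, with a 95% exact interval of the ratio of the 2 read counts. The intervals cover counting error only, and amplified reads are not independent molecules. A gene was counted as past 2-fold where it was listed in both libraries, had at least 10 reads in 1 of them and differed by more than 1 on the log2 scale.

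Between the LIEA libraries the coactivators differed in opposite directions, with YAP1 lower and WWTR1 higher in A549. YAP1 (chr11:101981178-102104155 on GRCh37) had 354, 1219 and 178 reads, which are levels of 3.98, 5.62 and 1.74 log2 rpkM. WWTR1 (chr3:149235022-149454501) had 605, 254 and 989 reads, or 4.83, 3.43 and 4.30 log2 rpkM. YAP1 was thus highest in HBE LIEA and lowest in HBE Smart-seq2, and WWTR1 was lowest in HBE LIEA. Between the LIEA libraries YAP1 was 3.11-fold lower in A549, a log2 difference of -1.63 (-1.81 to -1.46), and WWTR1 was 2.64-fold higher, a difference of 1.40 (1.19 to 1.62). Within a library, the level of YAP1 minus that of WWTR1 was -0.85 in A549 LIEA, 2.18 in HBE LIEA and -2.55 in HBE Smart-seq2 on the log2 rpkM scale. YAP1 thus stood above WWTR1 in HBE LIEA and below it in the other two libraries.

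For YAP1 the difference between the methods was larger than that between the cell lines. In HBE, LIEA gave a YAP1 level 14.6-fold above that of Smart-seq2, a log2 difference of 3.87 (3.64 to 4.11), and 409 of the 13262 genes compared had a larger one. With HBE Smart-seq2 as the reference, YAP1 in A549 LIEA was 4.71-fold higher in place of 3.11-fold lower, a difference of 2.24. The direction of the cell line difference of YAP1 therefore depended on which HBE library was used. For WWTR1 the method difference was -0.87 (-1.07 to -0.66), and A549 LIEA lay above both HBE libraries, by 1.40 and by 0.54.

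**Figure D1:**
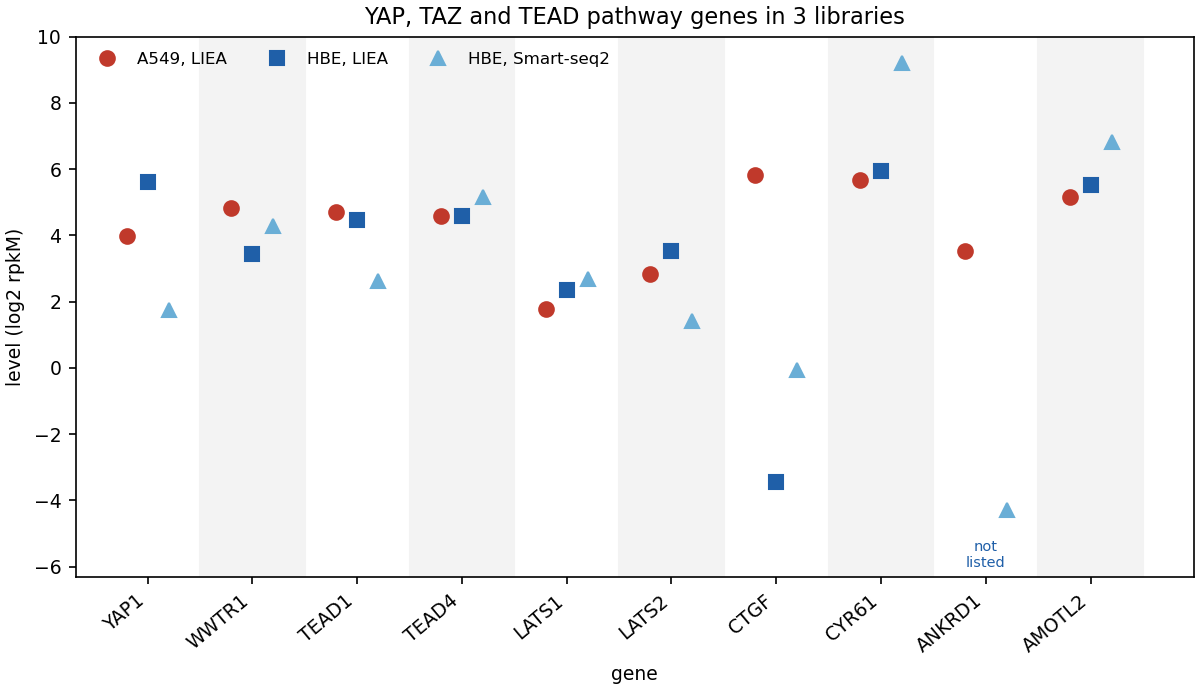
Level of each of the 10 genes in log2 rpkM (vertical axis) in the A549 LIEA (circles), HBE LIEA (squares) and HBE Smart-seq2 (triangles) libraries, 1 point per library. CTGF and ANKRD1 stand high only in A549 LIEA, at 5.84 and 3.53, while TEAD4 lies between 4.58 and 5.15 in all 3 libraries.

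TEAD1 and TEAD4, which carry YAP and TAZ to DNA, were nearly level between the cell lines by LIEA. TEAD1 (chr11:12695968-12966284 on GRCh37) had 1022, 961 and 577 reads, or 4.71, 4.47 and 2.64 log2 rpkM. TEAD4 (chr12:3068496-3149842) had 179, 198 and 628 reads, or 4.59, 4.58 and 5.15 log2 rpkM. TEAD1 was lowest and TEAD4 highest in HBE Smart-seq2. Between the LIEA libraries TEAD4 differed by 0.00 (-0.30 to 0.30), an interval that allows up to 1.23-fold in either direction, and TEAD1 by 0.24 (0.11 to 0.37). Against HBE Smart-seq2, TEAD1 in A549 LIEA was 2.07 higher and TEAD4 differed by -0.57. The 2 methods differed in HBE by 1.83 (1.68 to 1.98) for TEAD1 and by -0.57 (-0.81 to -0.34) for TEAD4. As a result TEAD1 and TEAD4 stood at about equal levels in both LIEA libraries, 0.12 and -0.11 apart on the log2 rpkM scale, and -2.51 apart in HBE Smart-seq2, where TEAD4 was the higher.

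The kinases that phosphorylate YAP and TAZ had the lowest levels of the 10 members in A549 LIEA, and in HBE their order depended on the method. LATS1 (chr6:149979289-150039241 on GRCh37) had 108, 176 and 473 reads, or 1.79, 2.35 and 2.68 log2 rpkM. LATS2 (chr13:21547175-21635725) had 164, 298 and 146 reads, or 2.83, 3.55 and 1.42 log2 rpkM. The LATS2 reads and its counting intervals rest on a whole factor of 2 set from the annotated transcript length, and its level does not. Without this factor the reads would be 82, 149 and 73 and the intervals wider. Both kinases were lower in A549 than in HBE by LIEA, but by less than 2-fold, at -0.56 (-0.91 to -0.20) for LATS1 and -0.71 (-0.997 to -0.43) for LATS2. Against HBE Smart-seq2, LATS1 in A549 LIEA differed by -0.89, while LATS2 was 1.41 (1.08 to 1.74) higher. The direction for LATS2 therefore depended on which HBE library was used. LATS2 exceeded LATS1 by 1.04 in A549 LIEA and by 1.20 in HBE LIEA, whereas in HBE Smart-seq2 it was 1.26 below it (-1.26). The method difference was 2.13 (1.83 to 2.42) for LATS2 and -0.33 (-0.59 to -0.08) for LATS1.

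The target genes differed between the cell lines in unlike ways. CTGF, a secreted matricellular protein and a standard readout of YAP and TAZ, was the most abundant member in A549 LIEA and all but absent from HBE. CTGF (chr6:132269316-132272512 on GRCh37) had 557 reads in A549 LIEA, 1 read in HBE LIEA and 22 reads in HBE Smart-seq2, which are levels of 5.84, -3.43 and -0.07 log2 rpkM. In A549 this placed it above 92.9% of all genes listed, and in the HBE libraries above 3.83% and 30.4% of them. A549 LIEA was 618-fold above HBE LIEA (110 to 24436), a log2 difference of 9.27 (6.79 to 14.58), and 5.91 (5.29 to 6.59) above HBE Smart-seq2 on the log2 scale. Only 12 of the 12934 genes compared between the LIEA libraries had a larger difference. Genes not listed in HBE LIEA, such as ANKRD1, have no difference and were not in this comparison. The width of the first interval comes from the 1 read in HBE LIEA. With 1 and 22 reads, the method difference of CTGF was -3.36 (-8.73 to -0.73), and with log2(rpkM + 1) it was -0.84, which is within 2-fold.

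ANKRD1, an ankyrin repeat protein best known from heart and skeletal muscle, was also higher in A549 LIEA than in either HBE library, at a lower level than CTGF. ANKRD1 (chr10:92671853-92680844 on GRCh37) had 95 reads in A549 LIEA, was not listed in HBE LIEA and had 1 read in HBE Smart-seq2. Its level was 3.53 log2 rpkM in A549 LIEA and -4.28 in HBE Smart-seq2. Against the level of 3 reads in HBE LIEA, A549 LIEA was at least 35.1-fold higher. Against HBE Smart-seq2 the ratio was 225-fold (39.4 to 8985), a log2 difference of 7.81.

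CYR61, the close relative of CTGF in the CCN family, did not follow it. CYR61 (chr1:86046444-86050272 on GRCh37) had 483, 650 and 13425 reads, or 5.66, 5.94 and 9.22 log2 rpkM. It was high in all 3 libraries and highest in HBE Smart-seq2, where it ranked 94 among all genes listed. The cell lines differed by -0.28 (-0.45 to -0.11) by LIEA, while LIEA read CYR61 9.66-fold below Smart-seq2 in HBE, a difference of -3.27 (-3.39 to -3.16) that was exceeded in the same direction by 119 of the 13262 genes compared. CTGF stood 0.17 above CYR61 in A549 LIEA on the log2 rpkM scale, and -9.38 and -9.28 from it in the HBE libraries, of which the gap in HBE LIEA rests on 1 CTGF read.

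AMOTL2, an angiomotin that binds YAP at cell junctions, resembled CYR61 rather than CTGF. AMOTL2 (chr3:134074189-134094321 on GRCh37) had 741, 1063 and 5553 reads, or 5.15, 5.53 and 6.82 log2 rpkM. The cell lines differed by -0.37 (-0.51 to -0.23) by LIEA, and the methods by -1.29 (-1.39 to -1.19). AMOTL2 was the third most abundant member in both LIEA libraries and the next after CYR61 in HBE Smart-seq2.

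**Figure D2:**
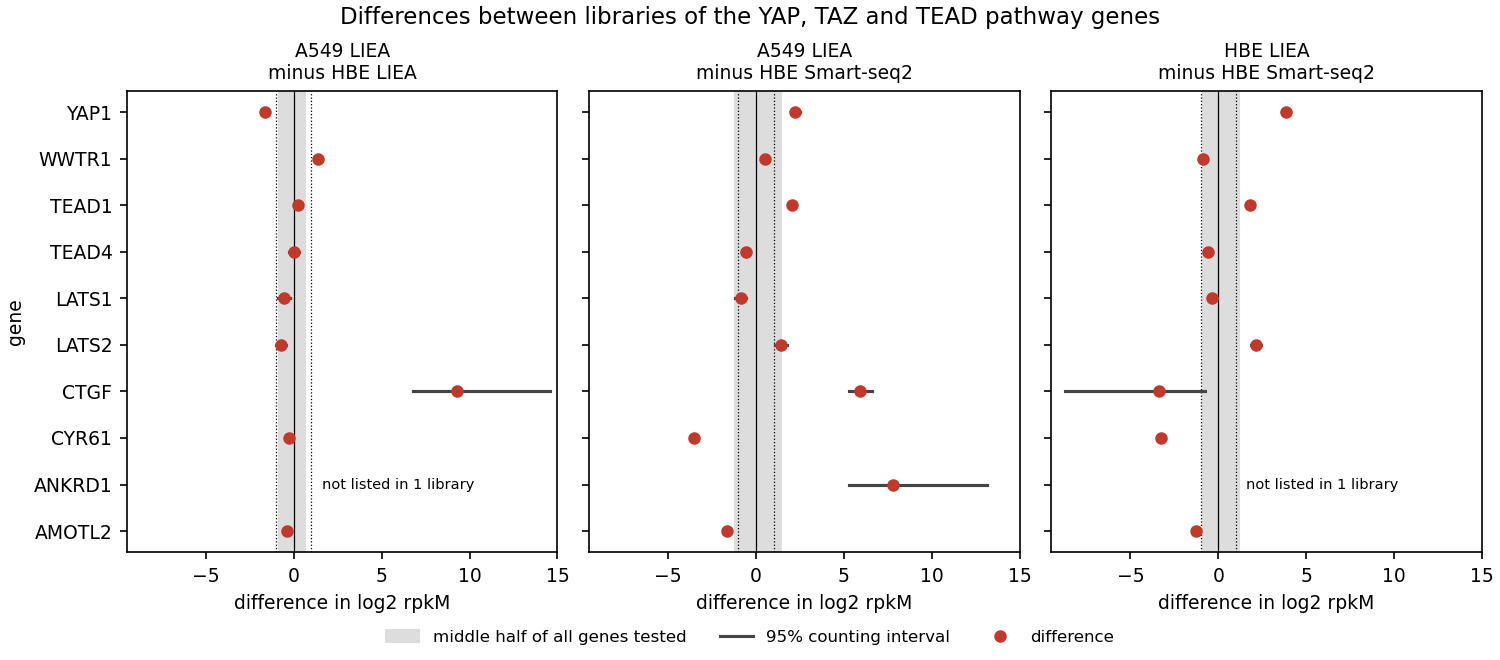
Difference in log2 rpkM (horizontal axis) of each gene between each pair of libraries, with 95% counting intervals as bars. Grey bands span the interquartile range of all genes compared and dotted lines mark 2-fold. CTGF lies far to the right of the band in both panels with A549, at 9.27 and 5.91, and YAP1 lies left of it against HBE LIEA and right of it against HBE Smart-seq2.

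The share of members past 2-fold between the cell lines was near that of all genes. Of the 9 members that could be compared between A549 LIEA and HBE LIEA, 3 were past 2-fold, with WWTR1 and CTGF higher and YAP1 lower in A549, against 38.2% of all 12934 genes. The median difference was -0.28 over these members and -0.15 over all genes. Relative to that median of all genes, the differences of YAP1, WWTR1 and CTGF were -1.48, 1.55 and 9.42. Between the methods in HBE, 6 of 9 members were past 2-fold, with YAP1, TEAD1 and LATS2 higher and CTGF, CYR61 and AMOTL2 lower in LIEA, against 50.0% of all 13262 genes. A549 LIEA against HBE Smart-seq2, which differ in both cell line and method, had 7 of 10 members past 2-fold, against 60.2% of 13293 genes, with 5 higher and 2 lower in A549 against 30.7% and 29.4%. CTGF alone of 9 members was past 2-fold on the same side of both HBE libraries, against 24.8% of 13246 genes (12.1% higher and 12.7% lower), and ANKRD1 had no value in HBE LIEA.

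The method differences were read beside GC content and transcript length, which move with them across all genes. The median of LIEA minus Smart-seq2 over all genes went from -0.84 where transcript GC was 30 to 35% to 1.34 where it was 65 to 70%. YAP1, with a GC content of 43.5%, and TEAD1, with 43.0%, lay in the bin from 40 to 45%, where the median was -0.31, and stood at 3.87 and 1.83, far above it. AMOTL2 at 56.3% and TEAD4 at 60.4% lay below the medians of their bins, 0.62 and 1.01. Centred within GC bins, the difference was 4.18 for YAP1, 2.14 for TEAD1, 1.71 for LATS2, -1.58 for TEAD4 and -1.91 for AMOTL2, so TEAD4 came past 2-fold. By length, the median was -0.39 for transcripts under 2000 nt and -0.06 for those from 2000 to 4000 nt. It was 0.39 from 4000 to 6000 nt and 0.81 at 6000 nt or more. The transcripts were 5398 nt for YAP1, 9416 nt for TEAD1 and 5542 nt for LATS2, all higher in LIEA, and 2343 nt for CTGF and 2293 nt for CYR61, both lower. WWTR1 at 5113 nt, LATS1 at 7517 nt and AMOTL2 at 5008 nt were also long and were lower in LIEA. Chemistry, sequencer and read mapping differ together between the methods and cannot be told apart.

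**Figure D3:**
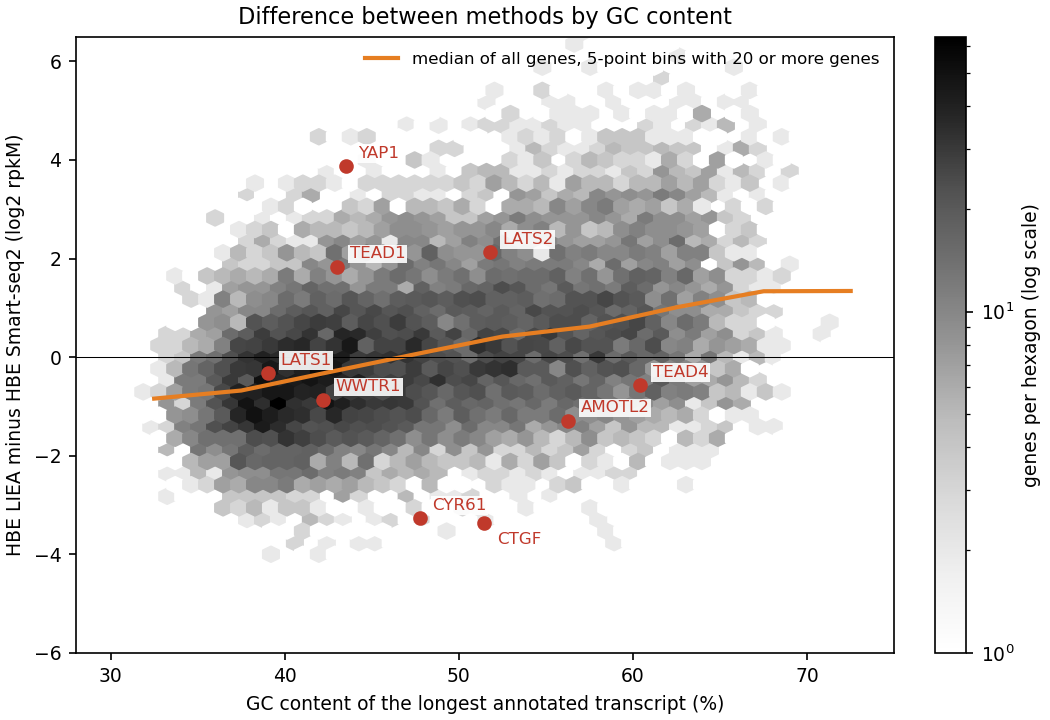
HBE LIEA minus HBE Smart-seq2 in log2 rpkM (vertical axis) against GC content of the longest annotated transcript (horizontal axis) for all genes compared, shaded by the number of genes per hexagon on a log scale, with the median per bin as a line. The 9 members compared are red points, and YAP1 at 3.87 and CYR61 at -3.27 lie near the upper and lower edges of the cloud at their GC content.

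The other TEAD genes and the VGLL genes, whose products compete with YAP and TAZ for TEAD, gave 1 gene higher and 1 lower in A549 by LIEA of 4 compared, against 18.0% and 20.2% of all genes. VGLL3 had 169, 70 and 147 reads and differed by 1.42, and TEAD3 had 100, 423 and 72 reads and differed by -1.93. Against HBE Smart-seq2, VGLL3 in A549 LIEA was 1.45 higher, and TEAD3 was 1.72 higher, the reverse of its direction by LIEA. VGLL4, with 201, 359 and 592 reads, differed by -0.69. TEAD2 and TEAD3, like TEAD1, were higher in HBE by LIEA than by Smart-seq2, both by 3.65.

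Against HBE LIEA, more of the upstream Hippo genes were lower than higher in A549, and against HBE Smart-seq2 they were evenly split. Of 27 kinases, scaffolds and regulators compared by LIEA, 2 were past 2-fold higher and 8 lower, with a median difference of -0.75 against -0.15 over all genes, of which 18.0% were higher and 20.2% lower. Against HBE Smart-seq2, 9 were higher and 9 lower with a median of 0.12, beside 30.7% and 29.4% of all genes and a median of -0.04. AMOT, the relative of AMOTL2, had 1, 51 and 23 reads and differed by -5.52 (-10.85 to -2.98). FRMD6, a FERM domain protein upstream of the kinases, had 45, 306 and 1191 reads and differed by -2.62, and WTIP, an Ajuba family protein that inhibits LATS, had 32, 3 and 3 reads and differed by 3.56 (1.89 to 5.92). Past 2-fold on the same side of both HBE libraries were 2 genes that were higher in A549, WTIP and WWC3, and 5 that were lower, of 27, against 12.1% and 12.7% of all genes. Besides AMOT and FRMD6, these 5 were SAV1, the scaffold of the MST kinases, MOB1B, a coactivator of LATS, and the LATS inhibitor AJUBA, all 3 named after their values were seen. SAV1 had 68, 307 and 636 reads, MOB1B 39, 166 and 453, and AJUBA 314, 1117 and 3980. Between methods, 14 of 26 were higher by LIEA and 2 lower, against 28.1% and 21.9% of all genes, led by WWC1 with 4.35 and WWC3 with 3.61.

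Regulators that act on phosphorylation or its readers were also counted, against 18.0% higher and 20.2% lower of all genes. Of 12 subunits of STRIPAK, the phosphatase complex that opposes the MST kinases, none was higher and 3 were lower in A549 by LIEA: STRIP2 by -2.28, SIKE1 by -1.90 and SLMAP by -1.65. Between methods PDCD10 and STRN differed most, by -2.17 and 2.12. Of 7 genes for 14-3-3 proteins, which hold phosphorylated YAP in the cytoplasm, SFN was lower with 532, 1464 and 4730 reads and a difference of -1.31, and the other 6 were within 2-fold, among them YWHAH at -0.73 and YWHAB at -0.58. YWHAG was 2.80 higher and YWHAQ stood at -1.37 by LIEA against Smart-seq2 in HBE.

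**Figure D4:**
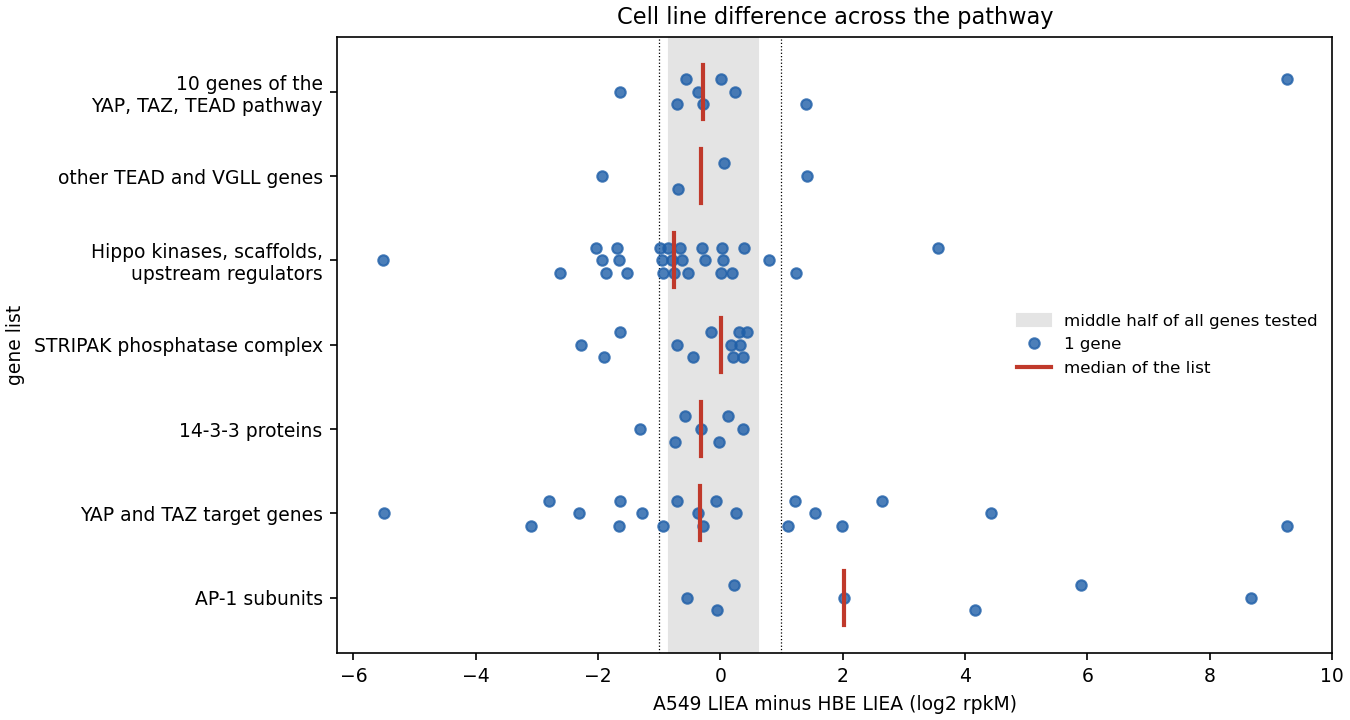
A549 LIEA minus HBE LIEA in log2 rpkM (horizontal axis) for the genes of each list (rows), 1 point per gene compared, with the list's median as a red line, the interquartile range of all genes as a grey band and 2-fold as dotted lines. The median of the Hippo kinases, scaffolds and regulators is -0.75 and that of the AP-1 subunits is 2.03.

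A wider list of 22 known targets of YAP and TAZ, which includes CTGF, CYR61, ANKRD1, AMOTL2 and LATS2, also held unlike differences. Of 20 genes compared by LIEA, 7 were past 2-fold higher in A549 and 7 lower, against 18.0% and 20.2% of all genes, with a median difference of -0.33. CTGF was among the higher genes, and none of the lower genes was a member. IGFBP3, which binds insulin-like growth factors, had 720, 37 and 616 reads. It was higher in A549 LIEA by 4.43 against HBE LIEA and by 1.47 against HBE Smart-seq2. F3, the tissue factor that starts coagulation, had 21, 1057 and 30275 reads and was lower by -5.50, the reverse of CTGF in both HBE libraries. Past 2-fold on the same side of both HBE libraries were 6 higher and 4 lower genes of 21, against 12.1% and 12.7% of all genes. Between methods F3, CTGF and CYR61 had the most negative differences of the list, at -3.74, -3.36 and -3.27. For 17 of the 22 genes a promoter was matched, and 9 of these held GGAATG on either strand, against 16.7% of all 27305 genes with an entry.

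**Figure D5:**
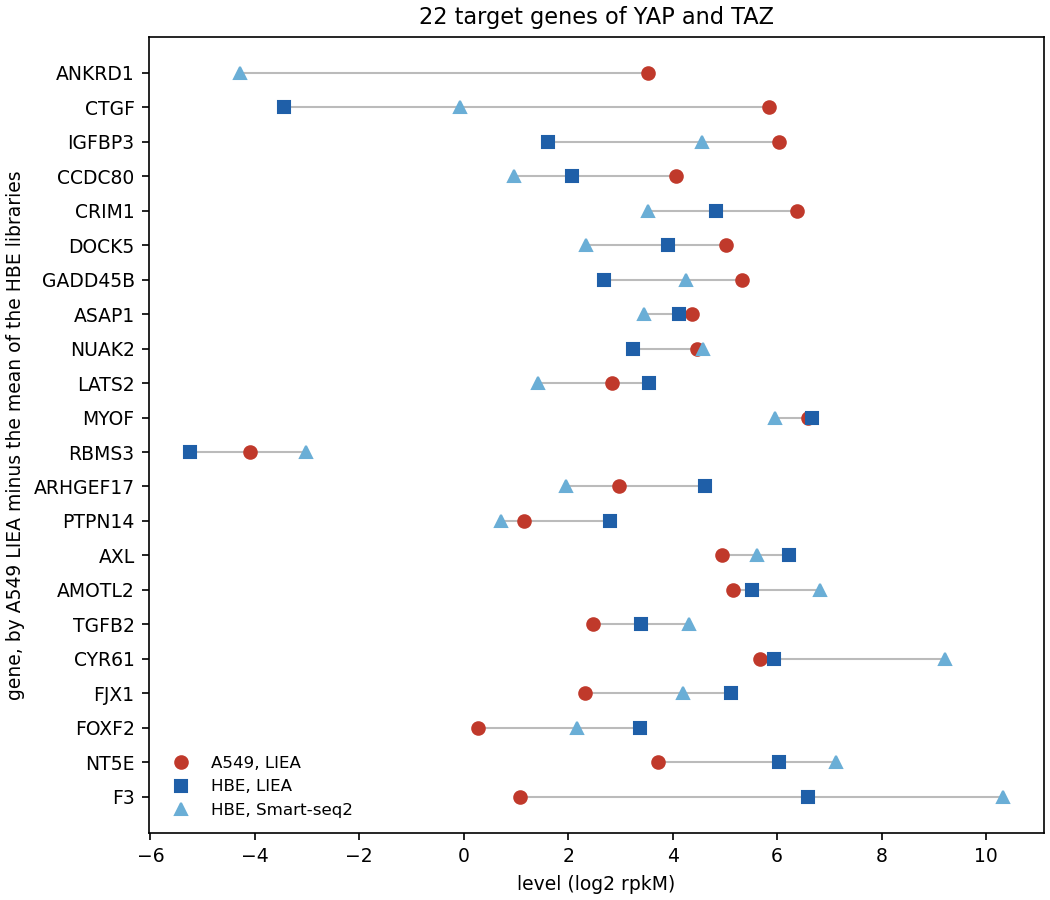
Level in log2 rpkM (horizontal axis) of the 22 target genes (rows) in the 3 libraries, ordered by A549 LIEA minus the mean of the HBE libraries in which the gene was listed. CTGF and ANKRD1 lie at the top, with A549 far to the right of HBE, and F3 lies at the bottom, at 1.08 in A549 LIEA against 6.58 and 10.33 in HBE.

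AP-1 factors, which occupy many enhancers together with TEAD, were mostly higher in A549. Of 7 subunits, 4 were past 2-fold higher in A549 than in HBE by LIEA and none was lower, against 18.0% and 20.2% of all genes, with a median of 2.03. FOSB had 1479, 4 and 41 reads and differed by 8.68, FOS had 3391, 63 and 366 reads and differed by 5.90, and JUN had 992, 61 and 299 reads and differed by 4.17. These 3 and JUND, 4 of 7, were also past 2-fold higher than in HBE Smart-seq2, against 12.1% of all genes higher than both HBE libraries. Against HBE Smart-seq2 alone 5 were higher and 1 lower, beside 30.7% and 29.4% of all genes. The lower one was FOSL1, with 88, 84 and 2109 reads, at -3.34 against HBE Smart-seq2 and 0.22 by LIEA. JUND was 4.31 higher by LIEA than by Smart-seq2 in HBE.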

How the data were processed

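Gene expression values of 3 libraries of human lung cell lines were used: A549 by LIEA, HBE by LIEA and HBE by Smart-seq2, each from 10 pg of polyA+ mRNA. The authors mapped the reads to RefSeq transcripts with FANSe2, and per the labels the genome build was hg19. They deposited log2 values of rpkM for each gene, with no pseudocount and with genes without reads left out of the list. Strand was not given in the sources used here, so reads of overlapping genes may be shared.

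The values are not counts, so no count test was run. Reads were recovered by finding, for each gene, the smallest whole length at which its rpkM gives whole reads in every library. A whole factor, at most 12, was then set from the annotated transcript length. It was above 1 for 978 genes, LATS2 among them. All values came out whole, within 1e-08 on the log2 scale, which the search itself requires. The reads sum to 96.8 to 97.1% of the totals. Per library 4 rows with repeated symbols were left out, as were 1589 blank rows of Smart-seq2. The steps were tested on simulated data of 17233 genes. There the ratio of reads to length was exact for 100% of the genes and the reads themselves for 94.0%.

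The members and lists were chosen with earlier results of these data known. The results of 1 list are not reported here. All 10 members are named. In every other list, the up to 3 genes with the largest absolute difference between the LIEA libraries and the up to 2 with the largest between methods are named, markers may be named, and, for YAP1 and CTGF, the 3 nearest genes over the libraries. GC content and positions came from the GENCODE annotation on GRCh37, which 94.0% of the genes matched, and promoters from RefSeq on GRCh38.p14. Alternatives were another scaling, a pseudocount of 1, other read minimums and folds, GC centring and the other HBE library. Python 3.11.15, numpy 2.4.6, pandas 2.3.3, scipy 1.17.1 and matplotlib 3.10.9 were used.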

Additional observations from a re-analysis of the deposited data

How the results depend on the processing

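No paired analysis was possible because each group has 1 library, and for the same reason no library could be left out of a group. Of the member counts, 56 stayed within 1.5 times under the alternatives and 4 did not. At 3-fold, 1 member was higher in A549 LIEA than in HBE LIEA in place of 2. With HBE Smart-seq2 as the reference, which also changes the method, 7 members were past 2-fold in place of 3, with 5 higher in place of 2 and 2 lower in place of 1, and YAP1 reversed from -1.63 to 2.24. Of the values of single members, 49 moved by less than their counting interval, 22 by more and 1, past 2-fold, reversed. With log2(rpkM + 1) the CTGF difference between the LIEA libraries was 5.74 in place of 9.27, and that between methods -0.84 in place of -3.36, by construction of the pseudocount, so that 5 members in place of 6 were past 2-fold between methods. Scaling by a trimmed mean of log ratios or by the median changed no direction of a member. With the trimmed mean, WWTR1 between methods went from -0.87 to -1.01, so that 7 members in place of 6 were past 2-fold. Centred within GC bins, LATS1 between methods also changed sign, at 0.35 in place of -0.33, within 2-fold either way. With HBE Smart-seq2 as the reference, LATS2 changed sign too, at 1.41 in place of -0.71, and TEAD4 stood at -0.57 in place of 0.00. Depth limits CTGF and ANKRD1 in HBE, which had 0 to 22 reads.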

Other observations

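Of 4 other CCN and muscle ankyrin repeat genes compared between the LIEA libraries, 2 were past 2-fold higher and 2 lower in A549, against 18.0% and 20.2% of all genes. NOV, a CCN family gene now called CCN3, had 21 reads in A549 LIEA and 2 in HBE LIEA and was not listed in HBE Smart-seq2, a difference of 3.54 (1.51 to 6.68) between the LIEA libraries. ANKRD2, a relative of ANKRD1, had 49, 254 and 588 reads and WISP2, a relative of CTGF, had 75, 220 and 726 reads, and both were lower in A549, by -2.23 and -1.40 on the log2 scale. ANKRD23, another relative of ANKRD1, was 2.68 higher in HBE by LIEA than by Smart-seq2.

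Over the 3 libraries, SBF1, SBNO2 and PLXNB1 had the levels nearest to those of YAP1 among 5238 genes with at least 100 reads in each, at distances of 0.44, 0.47 and 0.50 in log2 rpkM. No such gene came near CTGF, for which the nearest, KIF13B, was 5.50 away, since CTGF itself had under 100 reads in HBE.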
